A study of Mus musculus with 6 samples.

Results

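The genes described here encode voltage-gated sodium and calcium channels, pacemaker (HCN) channels and potassium channels with their auxiliary subunits, together with 1 non-coding RNA that shares the potassium channel prefix. They were taken by name, as symbols that begin with Kcn, Cacn, Scn and a digit, or Hcn and a digit, with Kcnj8 set aside. Of 45792 genes in the count table, 130 carried such a name, and 93 of these had at least 10 counts in at least 3 hearts. The other 37 were under that minimum. RNA was measured by sequencing in 6 whole mouse hearts at embryonic day 13.5. The 3 control hearts are labelled wild-type, and the 3 mutant hearts are labelled with Tie2Cre and a floxed Ino80 on both alleles (Tie2Cre;Ino80 fl/fl). The labels give the strain as C57BL/6 for all 6, whereas the study's methods describe mixed backgrounds and define controls as the other genotypes of the crosses. Tie2Cre expresses the recombinase in endothelial and endocardial cells and their descendants, and the heart muscle cells, in which most cardiac channels are made, were not its target. In the study's methods mutants came from several litters and controls were their litter mates, but no source used here ties these hearts to litters, so p-values measure the spread between these hearts.

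Each heartbeat is an action potential that a sequence of channels shapes. Sodium channels give the upstroke, L-type calcium channels hold the plateau and trigger contraction, and several potassium channels bring the membrane back to rest and keep it there. In pacemaker cells, HCN channels and T-type calcium channels contribute to the slow depolarization that starts the next beat. Pore subunits carry the current, and beta, alpha2delta, KChIP and KCNE subunits set how many channels reach the membrane and how they open and close.

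The channel genes that separated mutant from control hearts included genes of the pacemaker, background potassium, transient outward and slow repolarizing currents. Hcn4 and Kcnk3 were higher in all 3 mutant hearts, by 1.92-fold and 1.97-fold. Kcnip2 was 6.47-fold lower, Kcnq1 1.65-fold lower and Kcnj12 1.47-fold lower. Cacna1c, the main pore of the plateau current, had a log2 fold change of −0.13. In whole hearts, fewer cells of a type and less RNA per cell cannot be told apart. No gene passed edgeR's quasi-likelihood test at an adjusted p under 0.05 with all 6 hearts, so the differences below are given as values.

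Windows of 250 bases upstream of the transcription start are shown for 4 of the genes on which the results turn, 2 with a higher level in mutant hearts (Hcn4, Kcnh2) and 2 with a lower level (Kcnip2, Kcnj12). They come from RefSeq on GRCm38.p6 and run 5′ to 3′ on the strand of the gene. Capitals mark the GC box (GGGCGG), the CCAAT box (CCAAT) and the T-box core (AGGTGT), each searched on both strands, as were the TATA box (TATAAA) and the GATA motif (AGATAA). The Hcn4 window lies on the plus strand at chr9:58822699-58822948, that of Kcnh2 on the minus strand at chr5:24329592-24329841, that of Kcnip2 on the minus strand at chr19:45816064-45816313, and that of Kcnj12 on the plus strand at chr11:61065554-61065803. None of the 4 windows overlapped an exon in GENCODE vM21. The Kcnh2 and Kcnj12 windows lie inside the span of their gene, at a start internal to it.
Hcn4: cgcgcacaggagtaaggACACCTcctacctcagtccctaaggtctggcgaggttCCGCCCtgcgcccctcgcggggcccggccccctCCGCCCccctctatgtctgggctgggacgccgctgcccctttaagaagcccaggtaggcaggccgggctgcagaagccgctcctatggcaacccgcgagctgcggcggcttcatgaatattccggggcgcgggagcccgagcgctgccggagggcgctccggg
Kcnh2: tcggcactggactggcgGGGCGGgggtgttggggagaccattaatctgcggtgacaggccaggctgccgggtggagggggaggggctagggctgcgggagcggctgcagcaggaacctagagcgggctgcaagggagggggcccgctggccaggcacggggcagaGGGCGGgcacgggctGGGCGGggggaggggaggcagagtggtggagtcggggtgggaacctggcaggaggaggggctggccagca
Kcnip2: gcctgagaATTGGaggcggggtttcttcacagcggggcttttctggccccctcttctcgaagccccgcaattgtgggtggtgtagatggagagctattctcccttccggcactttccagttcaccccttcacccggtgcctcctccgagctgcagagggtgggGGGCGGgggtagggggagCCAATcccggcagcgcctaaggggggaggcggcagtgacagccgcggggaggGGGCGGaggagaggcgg
Kcnj12: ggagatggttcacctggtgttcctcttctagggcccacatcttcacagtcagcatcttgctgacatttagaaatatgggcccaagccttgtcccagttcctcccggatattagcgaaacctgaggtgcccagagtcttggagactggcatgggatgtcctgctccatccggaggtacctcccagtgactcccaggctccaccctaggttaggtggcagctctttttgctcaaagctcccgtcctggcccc

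The Hcn4 window was rich in CpG, with 25 CpG dinucleotides, 71.2% GC, 2 GC boxes and 1 T-box core. The Kcnh2 window held 3 GC boxes and 14 CpG at 73.6% GC, and the Kcnip2 window 2 GC boxes, 2 CCAAT boxes and 15 CpG at 66.8% GC. The Kcnj12 window stood apart from them, with 4 CpG, 56.0% GC and none of the motifs searched. Of the 93 channel genes, 66 had entries in the table, with 93 windows among them. Their median GC content was 58.8%, against 52.4% over all 32851 windows, and their median CpG number was 8 against 6. A GC box was found in 44.1% of channel windows and in 32.7% of all windows. TATAAA was found in 1 channel window (1.08%), against 12.4% of all, AGATAA in 3.23% against 9.99%, CCAAT in 28.0% against 33.8% and AGGTGT in 8.60% against 11.8%. These are descriptions of the letters in the windows, with no test.

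Levels of the 93 genes spanned several orders of magnitude. As a mean over the 6 hearts, 28 were under 1 CPM (CPM are counts per M counts of the library, whose total is scaled by TMM to balance library composition), 65 were at or above 1 CPM, and 27 at or above 10 CPM. Cacna1c, Kcng2 and Kcnh2 were among those above 100 CPM. Per kb of exon, the order of levels was led by Kcng2, a silent Kv subunit that modifies Kv2 channels, at 46.7 ± 8.20 CPM per kb (SD, n = 6). It was followed by Kcne1, the auxiliary subunit of the slow delayed rectifier, at 31.0 ± 9.66, and Kcnh2, the pore of the rapid delayed rectifier, at 28.6 ± 3.18 CPM per kb. The order of these genes differed between the groups. Per kb, Kcne1 stood at 36.8, 26.9 and 47.6 CPM in controls, above Kcnh2 at 26.1, 25.8 and 26.4 in each heart, and in mutants at 27.9, 20.7 and 26.0, below Kcnh2 at 29.6, 29.9 and 34.0 in each heart. Kcnk3, a two-pore background channel, stood at 22.3 ± 8.34, and Kcnj5, a subunit of the acetylcholine-activated channel, at 16.4 ± 2.62 CPM per kb. The spreads of Kcnk3 and Kcnj5 over all 6 hearts overlapped, but that of Kcnk3 includes its difference between control and mutant hearts.

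**Figure D1:**
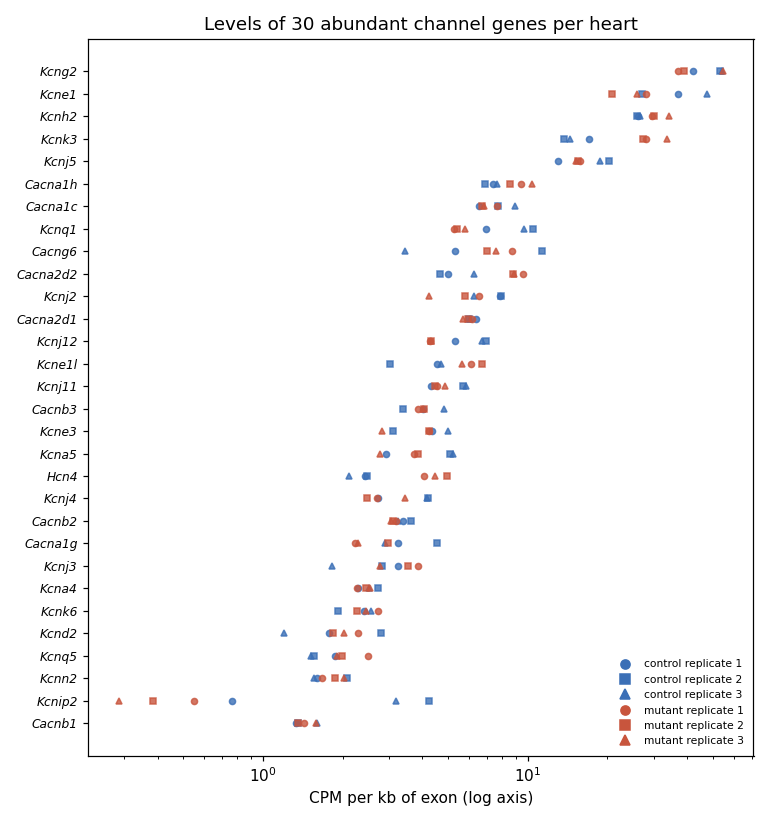
Level of 30 abundant channel genes in each of the 6 hearts, in CPM per kb of exon on a log axis, ordered by the mean over hearts. Colour separates control from mutant hearts and marker shape gives the replicate. Kcng2 led at a mean of 46.7 CPM per kb, and for Kcnk3 and Hcn4 the mutant hearts lay to the right of all controls.

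Among genes with a symbol in the deposited table, all 8 pore genes of calcium channels, all 4 beta and all 3 alpha2delta subunit genes, all 4 HCN genes and all 4 sodium channel beta subunit genes passed the count minimum. So did 7 of 10 sodium channel pores, 23 of 37 voltage-gated potassium pores, 11 of 13 of their accessory subunits, 9 of 12 inward rectifiers, 9 of 11 calcium-activated potassium channel genes, 7 of 12 two-pore channels and 3 of 7 calcium channel gamma subunits. Of 5 non-coding RNAs, 1 passed. A further 12 channel symbols, paired with identifiers only in GENCODE vM21, are not among the 130 and had at most 1 count in any heart. Genes best known from neurons were among those under the minimum, such as Kcnc1 and Scn1a. One member, the neuronal sodium channel Scn8a, was too low for the filter of the test, so 92 of the 93 were tested.

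The comparison of mutant with control hearts asked how loss of Ino80, the ATPase of a chromatin remodeling complex, from endothelium changed RNA levels in the heart. Over all genes edgeR called 0 of 17125 (0%) at an adjusted p under 0.05, with a smallest adjusted p of 0.053, and 0 channel genes, with a smallest of 0.065. At an unadjusted p under 0.05, 16 channel genes were higher (17.4%) against 9.48% of all genes, and 9 were lower (9.78%) against 9.98%. The other 67 did not pass. In 19 channel genes (20.7%) all mutant hearts lay above all controls, against 14.3% of all genes, and in 6 (6.52%) they lay below, against 12.8%. DESeq2's Wald test, the study's own tool, called 6 channel genes higher (6.52%, background 2.63%) and 4 lower (4.35%, background 3.22%) at an adjusted p under 0.05. The count minimum could be met by the mutant hearts alone, whose libraries held 53486881 counts on average against 33889390 in controls. That average was raised by mutant replicate 1, at 89675692. Mutant replicates 2 and 3 held 41836114 and 28948836, the last below every control. Kcnmb2 and Scn4b, with few counts in controls, met the minimum only with their mutant hearts. Both are among the higher genes at the unadjusted threshold, and Kcnmb2 is among those DESeq2 called. The median log2 fold change of channel genes was 0.12, with 57 positive and 35 negative, against −0.0017 over all genes. The SD of the log2 fold change among channel genes was 0.64 against 0.43. Levels were not matched in this comparison, and 28 channel genes were under 1 CPM, where fold changes are the least precise.

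Single hearts moved these counts. Without control replicate 1, edgeR called 6 channel genes higher, against 1.85% of all genes, and 4 lower, against 2.49%. The higher ones included Hcn4, Kcnk3, Cacna2d2, Kcnmb2 and Scn4b, and the lower ones Kcnip2, Kcnq1, Kcnj12 and Kcnn1. Leaving out any of the other hearts left 0 channel genes called by edgeR. DESeq2 called 10 higher and 7 lower without control replicate 1 (11.9% and 8.33%, against 4.93% and 6.14% of all genes). It called 3 higher and 2 lower without mutant replicate 1 (3.80% and 2.53%, against 1.02% and 1.56%). Without mutant replicate 2 or 3 in turn the lower calls were 1 and 2 (1.08% and 2.25%, against 1.48% and 3.38%).

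**Figure D2:**
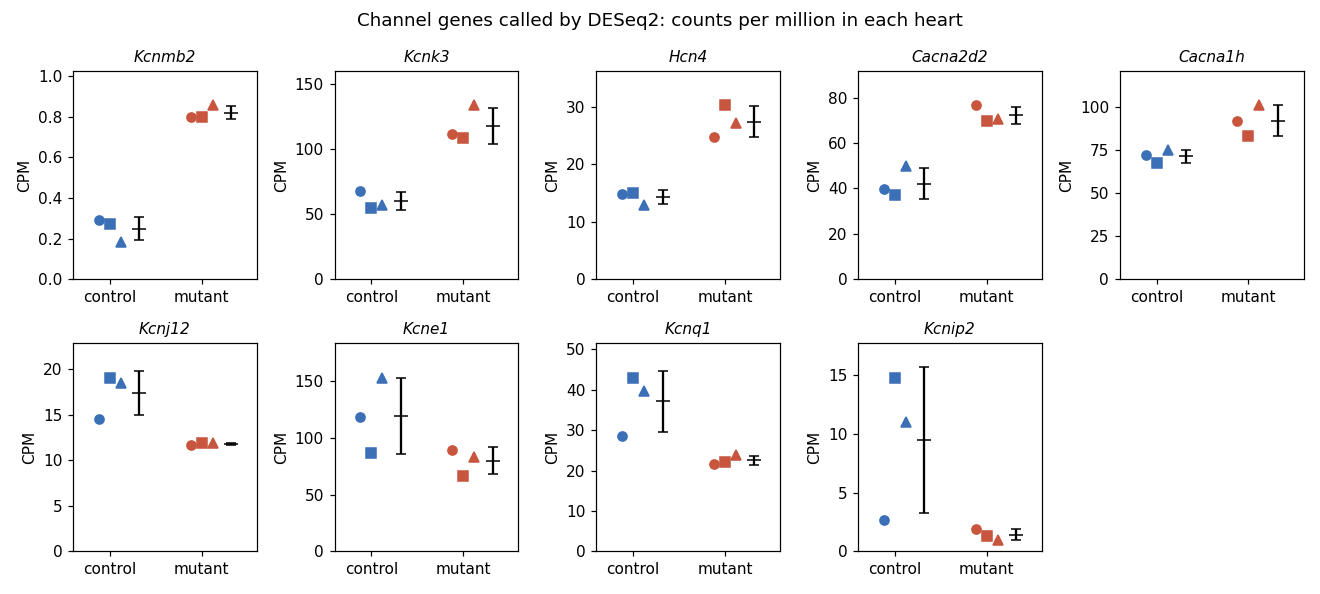
CPM in each heart for 9 channel genes that DESeq2 called at an adjusted p under 0.05, on linear axes from 0. Coloured points are hearts (blue control, red mutant) and the black bar beside them is the mean ± SD (n = 3). In 8 of the 9 the groups do not overlap, and in Kcne1 they do, but the genes were chosen by a test on these same hearts.

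Of the pacemaker channel genes, Hcn4 was higher in mutant hearts and passed DESeq2's test. Hcn4, the main pore of the sinus node pacemaker current, stood at 14.9, 15.1 and 12.9 CPM in the controls and at 24.8, 30.3 and 27.3 CPM in the mutants. Every mutant heart was above every control, and the log2 fold change was 0.94 ± 0.11 (SE; adjusted p = 0.065 by edgeR and 8.62e-10 by DESeq2). Hcn2 and Hcn3 were both low, at about 1 CPM. Hcn2 was lower in every mutant heart (log2 fold change −0.45 ± 0.25) and Hcn3 higher in every mutant heart (0.48 ± 0.24), and neither reached an unadjusted p under 0.05. Per kb, the ratio of Hcn4 to Hcn2 was 5.46 to 7.40 in controls and 16.0 to 18.9 in mutants, a separation that follows from the 2 genes.

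Among sodium channel genes, the beta subunits, which anchor the pore and tune its gating, spread to both sides. Scn4b was higher at 0.74, 1.03 and 0.58 CPM against 0.37, 0.20 and 0.09 CPM (log2 fold change 1.79 ± 0.47, SE), a level of 3 to 14 counts in the controls. Scn3b was at −0.65 ± 0.33 and Scn2b at 0.57 ± 0.29, both with overlapping groups. Scn10a, a sodium channel of sensory neurons that is also found in the conduction system, was at −0.22 ± 0.21. Scn3a, an embryonic neuronal pore chosen here after its values were seen, stood at 0.79, 2.79 and 1.36 CPM in controls and at 0.53, 0.85 and 0.38 CPM in mutants, and the groups overlapped.

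Of the L-type calcium current genes, 1 auxiliary subunit differed clearly between the groups and the main pore overlapped. Cacna2d2, an alpha2delta subunit that brings calcium channels to the membrane, stood at 39.6, 37.1 and 49.8 CPM in controls and at 76.6, 69.6 and 70.8 CPM in mutants. All mutant hearts were above all controls, and the log2 fold change was 0.78 ± 0.11 (SE; adjusted p = 0.065 by edgeR and 8.70e-07 by DESeq2). Its exons overlap an antisense gene, Gm17141. Cacna2d1, the other abundant alpha2delta gene, stood at 79.2, 74.6 and 74.9 CPM against 76.4, 73.9 and 70.8 CPM, with a log2 fold change of −0.05 and a confidence interval from −0.20 to 0.10. Cacna1c, the main cardiac L-type pore, was at −0.13 ± 0.12 with overlapping groups. Cacna1d, the L-type pore that opens at lower voltages and is prominent in atrium and nodes, stood at 15.1, 13.9 and 15.4 CPM in controls and at 21.6, 18.3 and 16.5 CPM in mutants. It did not overlap between groups (log2 fold change 0.35 ± 0.12, SE), and neither edgeR nor DESeq2 called it. The ratio of Cacna1c to Cacna1d per kb was 5.46 to 7.36 in controls and 4.46 to 5.23 in mutants. The beta subunits, which chaperone the pore, were at 0.02 ± 0.13 (Cacnb1), −0.14 ± 0.07 (Cacnb2) and −0.04 ± 0.13 (Cacnb3), and only Cacnb2 separated the groups.

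The 2 T-type calcium channel genes of the heart had opposite signs. Cacna1h stood at 72.4, 67.5 and 74.9 CPM in controls and at 92.2, 83.4 and 101 CPM in mutants, with no overlap (log2 fold change 0.36 ± 0.09, SE; adjusted p = 0.10 by edgeR and 0.013 by DESeq2). Cacna1g stood at 32.7, 46.2 and 29.3 CPM in controls and at 22.5, 30.1 and 23.2 CPM in mutants, where mutant replicate 2 overlapped the lowest control (log2 fold change −0.51 ± 0.18, SE). Per kb, Cacna1h exceeded Cacna1g in every heart, by 1.52 to 2.66 times in controls and by 2.88 to 4.52 times in mutants. Cacng6, the highest of the gamma subunit genes per kb, was at 0.23 ± 0.36 and ranged from 6.79 to 22.3 CPM within the controls alone.

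**Figure D3:**
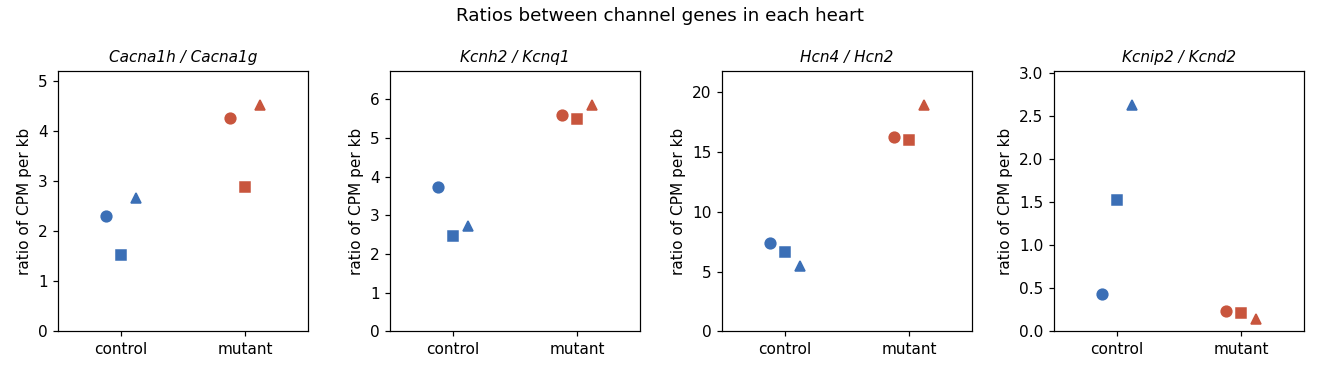
Ratio of CPM per kb between pairs of channel genes in each heart, on linear axes from 0, with controls in blue and mutants in red. The groups do not overlap in the 4 pairs shown, which are among 7 computed, with Cacna1h over Cacna1g at 1.52 to 2.66 in controls and 2.88 to 4.52 in mutants. For Hcn4 over Hcn2 and Kcnh2 over Kcnq1 this follows from the single genes, which separated the groups in opposite directions. The pairs of inward rectifiers, in which the groups overlapped, are not shown.

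Of the 4 genes of the transient outward potassium current, which gives the early repolarization, only the auxiliary subunit Kcnip2 was called by DESeq2. Kcnip2 encodes a KChIP, a calcium-binding partner that carries Kv4 pores to the membrane. It stood at 2.65, 14.8 and 11.0 CPM in controls and at 1.90, 1.34 and 0.99 CPM in mutants. The groups did not overlap, but control replicate 1 lay much nearer to the mutants than to the other controls, and the log2 fold change was −2.69 ± 0.57 (SE; adjusted p = 0.087 by edgeR and 0.0060 by DESeq2). Without that control heart the log2 fold change was −3.14 (edgeR adjusted p = 0.0040). The pericyte marker Rgs5 (44.2, 100 and 101 CPM in controls; 12.8, 11.0 and 16.1 CPM in mutants) and the muscle creatine kinase gene Ckm (313, 761 and 635 CPM; 172, 167 and 199 CPM) were likewise lowest among the controls in replicate 1, and their part in the result was not tested. Of the Kv4 pores it joins, Kcnd2 was at 0.10 ± 0.27 with overlap and Kcnd3 at 0.25 ± 0.13 without, and Kcna4, the pore of the slow transient current, at −0.05 ± 0.11. The ratio of Kcnip2 to Kcnd2 per kb was 0.43 to 2.63 in controls and 0.14 to 0.24 in mutants.

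Both genes of the slow delayed rectifier were lower in mutant hearts. Kcnq1, its pore, stood at 28.6, 42.9 and 39.7 CPM in controls and at 21.6, 22.2 and 23.8 CPM in mutants. Every mutant heart was below every control, and the log2 fold change was −0.72 ± 0.14 (SE; adjusted p = 0.083 by edgeR and 5.17e-04 by DESeq2). Kcnq1ot1, the imprinted antisense RNA that starts inside Kcnq1, was at 0.26 ± 0.17 with overlapping groups. The study's text does not state whether strand was used in counting, so reads of the pair cannot be told apart. Kcne1, the subunit that slows the current, stood at 118, 86.6 and 153 CPM in controls and at 89.5, 66.7 and 83.4 CPM in mutants, and here mutant replicate 1 lay above control replicate 2 (log2 fold change −0.58 ± 0.20, SE; adjusted p = 0.18 by edgeR and 0.044 by DESeq2).

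Kcnh2, the pore of the rapid delayed rectifier, was slightly higher. It stood at 126, 125 and 128 CPM in controls and at 143, 145 and 165 CPM in mutants. The groups did not overlap, and the log2 fold change was 0.25 ± 0.08 (SE; adjusted p = 0.15 by edgeR and 0.059 by DESeq2). Kcne2, a possible partner subunit, was under 1 CPM on average in both groups. The ratio of Kcnh2 to Kcnq1 per kb was 2.46 to 3.74 in controls and 5.50 to 5.86 in mutants, a separation that follows from the single genes. Of the sustained delayed rectifier, Kcna5 was at −0.35 ± 0.23, Kcnab1 at −0.02 ± 0.33 and Kcnab2 at 0.22 ± 0.14, all with overlapping groups. Kcne1l (also called Kcne5), an accessory subunit that can act on the slow rectifier, stood at 7.04, 4.66 and 7.25 CPM in controls and at 9.40, 10.4 and 8.72 CPM in mutants, with no overlap (log2 fold change 0.59 ± 0.18, SE).

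The 3 inward rectifier genes that hold the resting potential all had negative fold changes. Kcnj12 (Kir2.2) stood at 14.6, 19.1 and 18.5 CPM in controls and at 11.7, 11.8 and 11.9 CPM in mutants. The mutant hearts were close together and below all controls, and the log2 fold change was −0.55 ± 0.12 (SE; adjusted p = 0.091 by edgeR and 0.0045 by DESeq2). Kcnj2 (Kir2.1) stood at 42.6, 43.2 and 34.3 CPM against 35.8, 31.7 and 23.1 CPM, with overlap (log2 fold change −0.40 ± 0.16, SE). Kcnj4 (Kir2.3) was at −0.37 ± 0.20, also with overlap, and neither was called by DESeq2. Of the acetylcholine-activated channel, which slows the atrium and nodes, Kcnj3 was at 0.37 ± 0.21 and Kcnj5 at −0.16 ± 0.15. Ratios per kb were computed for 7 pairs of channel genes, and they overlapped between groups in both pairs of inward rectifiers, for Kcnj2 over Kcnj12 at 0.94 to 1.48 in controls and 0.98 to 1.54 in mutants, and for Kcnj3 over Kcnj5 at 0.098 to 0.25 and 0.18 to 0.25. Kcnj11, the pore of the ATP-sensitive channel, was at −0.19 ± 0.12.

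**Figure D4:**
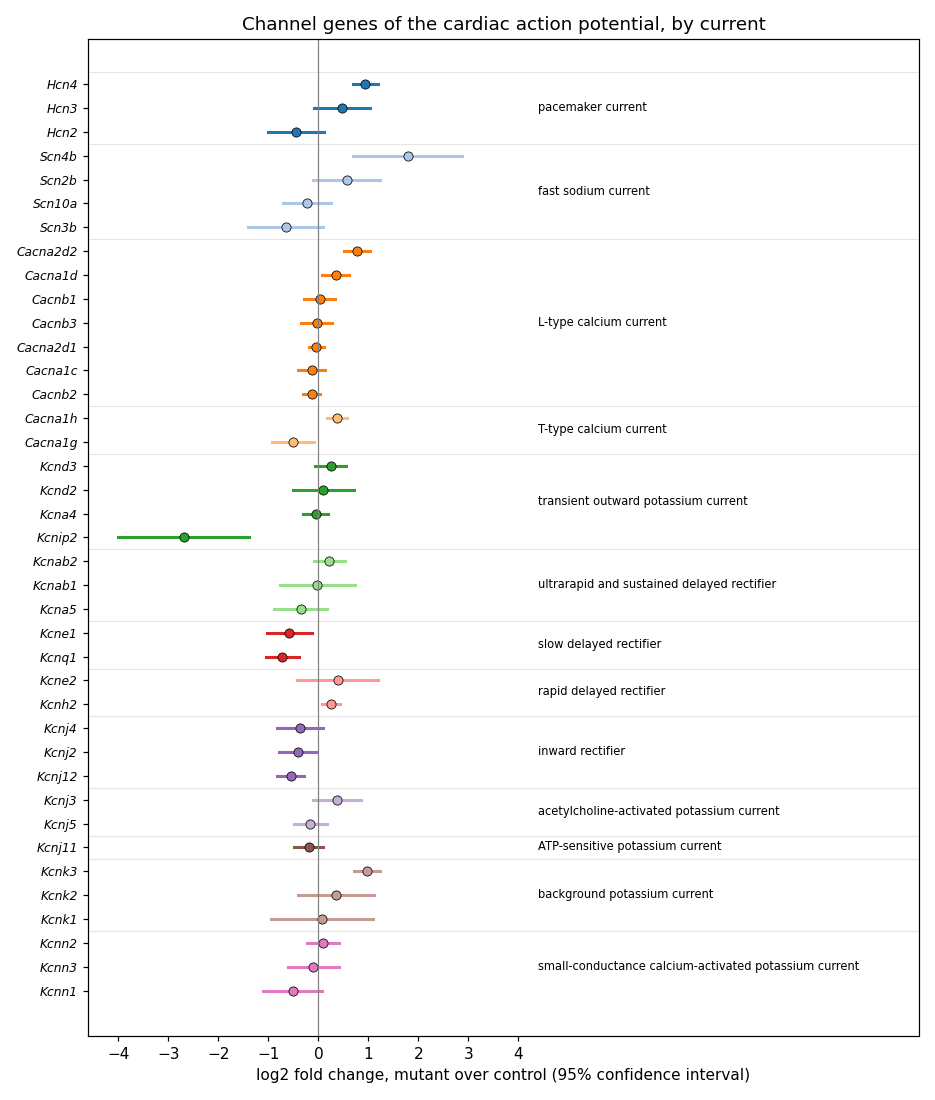
Log2 fold change (mutant over control) of 39 channel genes of the cardiac action potential, grouped by current, with points for the estimate from edgeR and lines for its 95% confidence interval. Hcn4, Cacna2d2 and Kcnk3 lie to the right of 0, and Kcnip2, Kcnq1 and the inward rectifiers to the left.

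Two-pore channels, which pass a steady background potassium current, had positive fold changes in all 7 genes tested with all hearts, and 2 of them (28.6%) reached an unadjusted p under 0.05 against 9.48% of all genes. The sign of Kcnk1 was not stable, at −0.032 with all libraries thinned to the smallest total and from −0.19 to −0.025 without 4 of the 6 hearts in turn. Kcnk3 (TASK-1) stood at 67.6, 54.4 and 57.2 CPM in controls and at 111, 108 and 133 CPM in mutants. All mutant hearts were above all controls, and the log2 fold change was 0.98 ± 0.11 (SE; adjusted p = 0.065 by edgeR and 1.66e-11 by DESeq2). An antisense gene, Gm9899, overlaps its exons. Kcnk5, chosen after its values were seen, stood at 2.42, 2.93 and 1.88 CPM against 3.15, 3.95 and 3.66 CPM, without overlap. Kcnk1 and Kcnk2 were under 1 CPM in every control heart and had log2 fold changes of 0.08 ± 0.44 and 0.36 ± 0.33.

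Among calcium-activated potassium channel genes, the beta subunit Kcnmb2 of the large-conductance channel stood at 0.29, 0.27 and 0.19 CPM in controls and at 0.80, 0.80 and 0.86 CPM in mutants. The groups did not overlap, at 6 to 11 counts in each control heart, and the log2 fold change was 1.70 ± 0.31 (SE; adjusted p = 0.081 by edgeR and 0.028 by DESeq2). The pore it joins, Kcnma1, was at about the same low level in both groups, at 0.10 ± 0.35. The small-conductance channels Kcnn1, Kcnn2 and Kcnn3 were at −0.52 ± 0.26, 0.08 ± 0.14 and −0.10 ± 0.22, with overlapping groups.

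Channel genes outside the cardiac action potential list also reached an unadjusted p under 0.05. Beside Kcne1l, Kcnmb2 and Kcnk5, the higher ones were Kcnj14, Kcnf1, Kcnc2, Kcnd1 and Kcnq5, with log2 fold changes from 0.37 (Kcnq5) to 1.37 (Kcnj14), and the lower ones included Kcna3 at −0.86 and Scn3a. DESeq2 called Kcnmb2 alone among these, and apart from Kcne1l and Kcnmb2 they were named after their values were seen. Among neuronal channels, 1 of 12 tested was higher (Kcnc2) and 1 lower (Scn3a), 8.33% each, and among 5 channels of smooth muscle and vessels 1 was higher (Kcnk5). In the cardiac action potential list, 8 of 43 were higher (18.6%) and 6 lower (14.0%) at that threshold, against 9.48% and 9.98% of all genes, and the median log2 fold change was −0.04. Neuron markers were low in both groups, with a summed level of 7.05 to 8.86 CPM in controls and 6.61 to 7.59 CPM in mutants over 10 genes, of which 6 were under 1 CPM.

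**Figure D5:**
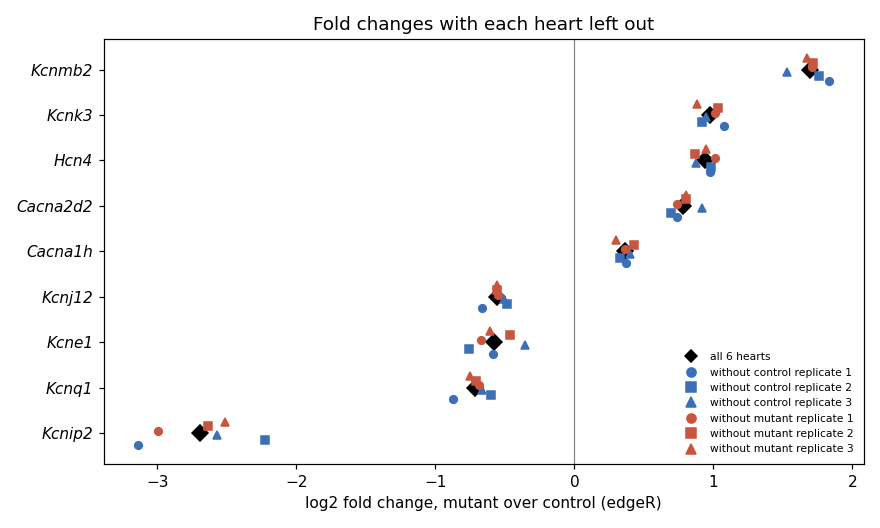
Log2 fold change from edgeR of 9 channel genes called by DESeq2, with all 6 hearts (black diamond) and with each heart left out (coloured points). The sign stayed the same for these 9 genes in all 6 fits, and Kcnip2 moved most, from −2.23 to −3.14. The genes were chosen by a test on all 6 hearts.

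Other genes of cardiac excitability lie outside the name rule. Of 24 gap junction, anchoring, exchanger and regulatory genes, 23 were tested, and an unadjusted p under 0.05 in edgeR was found for 1 with a higher (4.35%) and 4 with a lower level (17.4%), against 9.48% and 9.98% of all genes. Gja5 (connexin 40) is a gap junction gene of atrium and conduction system. The study also used it as a marker of trabecular myocardium and saw it in coronary arteries. Gja5 stood at 142, 109 and 94.5 CPM in controls and at 171, 157 and 176 CPM in mutants (log2 fold change 0.54 ± 0.14, SE; DESeq2 adjusted p = 0.0086). Gja1 (connexin 43), the gap junction gene of working myocardium, stood at 660, 722 and 724 CPM against 618, 587 and 529 CPM (−0.28 ± 0.09; DESeq2 adjusted p = 0.041). Neither pair of groups overlapped, and the signs were opposite. Ank2 and Cav3, which anchor channels, were each at −0.38, and Trpm7 was at −0.25. The sodium-calcium exchanger gene Slc8a1 was at −0.07 ± 0.10.

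Some marker genes of heart regions also differed between the groups. Of 8 atrial markers 7 had positive fold changes. An unadjusted p under 0.05 in edgeR was reached by 4 (50.0%), all higher, against 9.48% of all genes higher and 9.98% lower. These 4 were Myl7 (0.69), Myl4 (0.30), Nr2f1 (0.94) and Nr2f2 (0.28). The summed level of the 8 was 1615 to 1945 CPM in controls and 2041 to 2574 CPM in mutants. Of 8 pacemaker and conduction markers 5 had positive fold changes, led by the sinus node factors Shox2 (1.57 ± 0.35) and Tbx3 (0.45 ± 0.11). At that threshold 3 were higher (37.5%) and 1, Isl1, lower (12.5%), and the sum was 114 to 144 CPM against 140 to 166 CPM. Of the 5 ventricular markers 2 had positive and 3 negative fold changes, with 1 higher and 1 lower at that threshold (20.0% each). Their sums overlapped, at 6808 to 8513 CPM in controls and 6311 to 7225 CPM in mutants, and Hey2 was at −0.29 ± 0.09. All 8 cardiomyocyte markers were present, with 2 positive and 6 negative fold changes and a median log2 fold change of −0.17. At that threshold 1 was higher (Myh6) and 1 lower (Tnni3), 12.5% each. Their sums were 14498 to 19113 CPM against 15002 to 15812 CPM. Erythroid markers summed to 6705 to 30199 CPM in controls and 4190 to 7583 CPM in mutants. All 7 had negative fold changes, and 4 were lower at that threshold (57.1%). The 6 pericyte markers, also all negative, summed to 319 to 486 CPM and 279 to 298 CPM, with 2 lower (33.3%). DESeq2 called 2 pericyte markers lower and 0 erythroid markers. Endothelial markers summed to 832 to 998 CPM and 831 to 881 CPM, with 2 of 7 lower (28.6%) and 0 higher at that threshold. DESeq2 also called 2 endothelial markers lower, against 3.22% of all genes. Macrophage markers summed to 72.1 to 103 CPM and 92.2 to 102 CPM, with 1 of 5 higher (20.0%). Neural crest and glia markers summed to 20.7 to 28.0 CPM and 20.4 to 24.3 CPM, with 1 of 4 tested lower (25.0%). Smooth muscle markers summed to 1260 to 1451 CPM and 1196 to 1417 CPM, with 1 of 5 higher (20.0%) and 2 lower (40.0%). The skeletal muscle list, nearly all of it Ckm, summed to 314 to 762 CPM and 168 to 200 CPM, with 1 of 2 tested lower (50.0%). Myod1, Myog, Myf5 and Pax7 were under 1 CPM. The part of any of these cell types in the channel results was not tested.

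Ino80 itself stood at 31.5 ± 1.26 CPM in controls and 34.0 ± 2.35 CPM in mutants (SD, n = 3). Its counts cover the whole gene in all cells of the heart, so they check neither the deleted exon nor the endothelial deletion. The libraries held 28948836 to 89675692 counts, a 3.10-fold range, with the deepest and the shallowest both among the mutants. The coefficient of variation between hearts of a group was 0.15 by edgeR's common estimate. Exons of 35 of the 93 channel genes overlap another gene. Among the 57 tested genes without such overlap, 11 (19.3%) had an unadjusted p under 0.05 and a higher level, and 8 (14.0%) a lower level, against 9.48% and 9.98% of all genes.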

How the data were processed

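RNA from 6 whole hearts was sequenced as 76 bp paired-end reads. The authors mapped them with STAR (2.4.2a) to GRCm38 with GENCODE vM6 and deposited unnormalized counts per gene from summarizeOverlaps, and the overlap mode and strand setting are not given in the sources used here. Symbols were taken from the authors' deposited DESeq2 table, whose means, fold changes and p-values were not used. Columns were matched to samples by their titles.

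The channel genes, the gene and marker lists and the tests were chosen with earlier results of these data known. Low genes were removed with filterByExpr (at least 10 counts, total at least 15), and the others were scaled by TMM and tested with edgeR 4.0.16 (quasi-likelihood, group as the only term, limma 3.58.1, R 4.3.3), with Benjamini-Hochberg adjustment over 17125 genes and a threshold of 0.05. The SE is the size of the log2 fold change divided by the square root of F. Exon lengths and coordinates came from GENCODE vM21 on GRCm38, which matched 45229 identifiers, and promoter windows from RefSeq. Named genes were members of the action potential list, the 6 smallest unadjusted p in each direction among genes of at least 1 CPM without overlap, the highest member of each family per kb, and those DESeq2 called. As alternatives, DESeq2 1.42.0, RLE scaling, wider and narrower filters, thinning to 28948836 counts, leaving out each heart, and the replicate block were run. Fits were tested on simulated data. The results of some genes are not reported here. Both counting error and the spread between hearts limit the precision, counting error most for genes under 1 CPM.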

Additional observations from a re-analysis of the deposited data

How the results depend on the processing

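No channel gene passed edgeR's adjusted threshold with RLE size factors, a filter of 10 counts in 3 hearts, or thinning to the smallest total. With DESeq2, 6 were called higher and 4 lower (982 genes in all). With every gene of at least 1 count kept, edgeR called 6 higher and 3 lower (603 in all). Leaving out each heart gave 0 to 6 higher and 0 to 4 lower in edgeR, and 0 to 751 genes in all, the 751 without control replicate 1 and 3 without control replicate 2. At an unadjusted p under 0.05 the range was 11 to 21 higher and 5 to 13 lower, with 5 lower without mutant replicate 1 or mutant replicate 2. The 21 and the 13 were both found without control replicate 1. The share of all genes at that threshold was not counted in these fits, so these ranges are not a result about channel genes. The median log2 fold change ranged from 0.084 to 0.18. DESeq2 without each heart, chosen after seeing the data, called 3 to 10 higher (10 without control replicate 1, 3 without mutant replicate 1) and 1 to 7 lower (7 without control replicate 1, 2 without mutant replicate 1, 1 without mutant replicate 2, 2 without mutant replicate 3). These were 3.80 to 11.9% of channel genes higher and 1.08 to 8.33% lower, against 1.02 to 4.93% and 1.48 to 6.14% of all genes with an adjusted p, the highest of each without control replicate 1. The causes were not tested.

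The replicate numbers gave no sign of paired hearts, with correlations of deviations of 0.0093, −0.12 and −0.094 for replicates 1, 2 and 3. Between hearts of unequal number they were −0.033 to 0.13. With 3 hearts in each group, these values cannot exclude a pairing. With a replicate block edgeR called 14 genes in all, 0 of them channel genes, and the median was 0.16.

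Of 540 values for 45 named genes, 19 changed sign, in 8 genes with small fold changes. Thinning gave −0.012 for Cacnb1, 0.15 for Kcnab1 and −0.032 for Kcnk1. With each heart left out, Cacnb1 ranged from −0.034 to 0.11, Kcnk1 from −0.19 to 0.40, Kcnab1 from −0.26 to 0.27, Kcna4 from −0.11 to 0.011, Kcnn3 from −0.25 to 0.18, Cacnb3 from −0.15 to 0.10, Kcnd2 from −0.14 to 0.46 and Cacng6 from −0.082 to 0.83. Genes under 1 CPM rest on few counts, and their fold changes are the least precise.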
